A study of Homo sapiens with 12 samples.

Results

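The genes that encode the protein parts of the cytosolic ribosome were followed in SNU308, a human gallbladder cancer cell line, after siRNA knockdown of CEACAM6, a cell surface glycoprotein of the carcinoembryonic antigen family. Members were chosen by symbol: RPL or RPS followed by digits and an optional A or X, plus RPSA, RPLP0, RPLP1 and RPLP2. Of 60617 genes in the data, 77 met this rule, 31 for the small and 46 for the large ribosomal subunit. RNA-seq had been done on 12 samples in 3 groups of 4: cells given a non-targeting control siRNA (NTC), siCEACAM6#2 or siCEACAM6#3. All cells were of wild-type genotype per the labels and received siRNA at 25 nM for 3 days, so the NTC cells share the transfection and differ in the siRNA sequence. The design text calls the replicates 4 individual experiments of this single cell line, and p-values measure the spread between these samples. Both knockdown groups were compared with the same NTC samples.

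A ribosome is built from a small subunit, which holds and decodes the mRNA, and a large subunit, which forms peptide bonds. Each protein is made in about equal numbers, and most mRNAs for these proteins start with a C followed by a run of pyrimidines, the 5′ terminal oligopyrimidine (TOP) motif, through which mTORC1 signaling and the RNA-binding protein LARP1 control their translation. Ribosomal protein mRNAs are among the most abundant messages of dividing cells.

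The total estimated count per library lay between 21799476 and 22059456, and 17620 genes passed the filter on low counts and were tested, among them all 77 ribosomal protein genes. CPM below are counts scaled to a common library size after TMM normalisation. Those of the cell type markers and of the pseudogenes were scaled by the library total alone, without TMM factors. TPM is the deposited abundance per transcript length. In the knockdown check, CEACAM6 was measured at 524, 569, 596 and 619 CPM in NTC, at 353, 343, 286 and 329 CPM with siCEACAM6#2 and at 423, 386, 424 and 438 CPM with siCEACAM6#3. No knockdown sample reached the lowest NTC sample, and the siCEACAM6#2 samples all lay below the siCEACAM6#3 samples (exact permutation test, two-sided, p = 0.0286 for each of the 3 comparisons, the smallest p that 4 against 4 allows). All 9 markers of biliary and glandular epithelium were above 1 CPM, with a summed level of 9160 to 10832 CPM per sample. Of the markers of other cell types, 1 of 6 for fibroblasts, 1 of 6 for leukocytes, 2 of 4 for endothelium and 0 of 4 for liver cells had a mean over 1 CPM. In NTC the share of mitochondrially encoded genes lay between 11.8% and 12.9%, in siCEACAM6#2 samples between 12.2% and 13.3%, and in siCEACAM6#3 samples between 12.5% and 15.3%.

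To show the feature that gives most of these genes their common name of TOP genes, 30 bases around the annotated transcription start (10 before it and 20 from it on) are given from RefSeq on GRCh38.p14, read 5′ to 3′ on the gene's own strand. Capitals mark the longest run that begins with C, continues with C or T only for at least 7 letters in all and begins within 5 bases of the start. The first line is RPS12, at chr6:132814559-132814588 on the plus strand, followed by RPS18, at chr6:33272065-33272094 on the plus strand. These were the members called higher with siCEACAM6#2, and none was called with siCEACAM6#3. RPS13, at chr11:17077648-17077677 on the minus strand, had the next smallest p with siCEACAM6#2. RPS24, at chr10:78033853-78033882 on the plus strand, and RPS25, at chr11:119018324-119018353 on the minus strand, had the smallest p values with siCEACAM6#3 after RPL27. RPL27, at chr17:42998409-42998438 on the plus strand, and RPS29, at chr14:49598691-49598720 on the minus strand, had the largest log2 fold changes with siCEACAM6#3 and, after RPS12, with siCEACAM6#2, and have no run that meets this definition. RPS26, at chr12:56041908-56041937, and RPS15, at chr19:1438386-1438415, both on the plus strand, had negative log2 fold changes with each siRNA and have none that begins within 5 bases of the start either.
RPS12: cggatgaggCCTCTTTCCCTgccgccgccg
RPS18: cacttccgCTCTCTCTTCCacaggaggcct
RPS13: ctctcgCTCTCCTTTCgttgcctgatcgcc
RPS24: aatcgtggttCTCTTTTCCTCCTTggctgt
RPS25: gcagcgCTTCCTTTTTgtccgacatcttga
RPL27: gtgaaaggttagcggaagtgtccttctttc
RPS29: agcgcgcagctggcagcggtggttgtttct
RPS26: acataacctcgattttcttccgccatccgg
RPS15: aggcgcggaccaaagcgatctcttctgagg

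The table of starts held 62 of the 77 genes, with 77 starts. The run was present at 48 of these starts (62.3%), against 7.13% of all 35116 starts in the table. On the opposite strand it was present at 2.6% of the ribosomal protein starts and at 6.33% of all starts. The motif CTTTCC, which overlaps the run where both occur, was found in 24.7% of the 30-base windows of ribosomal protein genes and in 1.51% of all windows on the same strand. On the opposite strand CTTTCC was found in 0% and 1.11% of them. These matches are descriptions of the annotated starts, which were not measured in these cells and which, for RPL27 among others, differ between RefSeq and GENCODE.

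The levels of the 77 mRNAs differed by 25.7-fold per transcript length. The median TPM was 1200 over the 12 samples, and 72 of 77 genes lay between 500 and 3000 TPM. RPL41, which encodes the smallest ribosomal protein, was highest at 6281 ± 330 TPM (SD, n = 4) in NTC, 6531 ± 35.9 TPM with siCEACAM6#2 and 6475 ± 354 TPM with siCEACAM6#3. In TPM these means differ by less than the spread within NTC. In CPM RPL41 was at 1343 ± 64.3 in NTC, 1456 ± 28.8 with siCEACAM6#2 and 1475 ± 46.3 with siCEACAM6#3. On that scale neither knockdown group overlapped NTC (log2 fold changes 0.12 and 0.14, limma-voom adjusted p = 0.241 and 0.235). RPS2 and RPL5 followed with mean TPM of 2805 and 2802 over all samples, RPS2 being the higher in NTC (2835 ± 108 against 2686 ± 69.96 TPM) and RPL5 the higher with siCEACAM6#3 (2781 ± 166 against 2622 ± 163 TPM). The lowest gene was RPL9, at 254 ± 26.7 TPM in NTC, 262 ± 18.9 TPM with siCEACAM6#2 and 234 ± 49.0 TPM with siCEACAM6#3. RPL21 and RPS26 lay next above it, with mean TPM of 339 and 358. The annotation lists 18 pseudogenes of RPL9, 133 of RPL21 and 36 of RPS26, with counts of 0.159%, 10.4% and 2.18% of those of the gene.

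**Figure D1:**
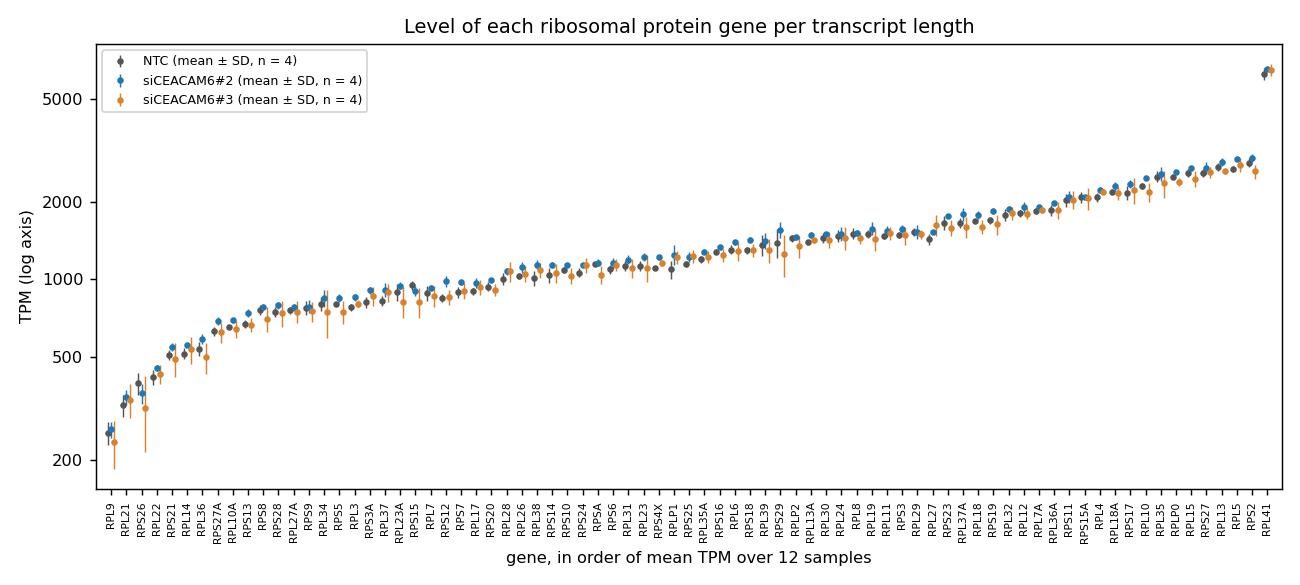
Level of each of the 77 ribosomal protein genes in TPM on a log axis, ordered by the mean over 12 samples, with points and bars for the mean ± SD of 4 replicates in each group. RPL41 stands apart as the highest, RPL9 is the lowest, and 72 of 77 genes lie between 500 and 3000 TPM.

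Counts were shared unequally with pseudogenes. The annotation lists 1587 pseudogenes of these 77 genes, of which 767 had a count and 30 passed the filter. For 68 of 77 genes the pseudogenes together held under 1% of the gene's own counts. RPL23A stood furthest from this, since its pseudogene RPL23AP42 held 467 to 713 CPM, or 166% of the counts given to RPL23A itself. Pseudogene counts came to 13.01% of the gene's counts for RPL22, 11.7% for RPL36A, 10.4% for RPL21, 7.13% for RPS2 and 5.87% for RPS28. The values of these genes are uncertain to that extent.

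The question of the first comparison was how knockdown with siCEACAM6#2 changed these mRNAs. RPS12, a small subunit protein, and RPS18, a protein of the small subunit head, rose, and the other 75 genes did not pass the test, although nearly all had slightly positive values. Ribosomal protein genes took 3.88%, 4.06%, 3.98% and 3.88% of the counts in the NTC samples and 4.17%, 4.38%, 4.31% and 4.16% in the siCEACAM6#2 samples. All siCEACAM6#2 samples lay above all NTC samples, with means of 4.26% ± 0.105 and 3.95% ± 0.087 (SD, n = 4). The share without mitochondrially encoded genes was 4.41% to 4.60% in NTC and 4.74% to 5.05% with siCEACAM6#2, again without overlap. In TPM, which weights short transcripts more, the share was 10.4% to 11.04% in NTC and 11.1% to 11.4% with siCEACAM6#2. Since these are bulk samples, a change in the makeup of the culture and a change in RNA per cell cannot be told apart.

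**Figure D2:**
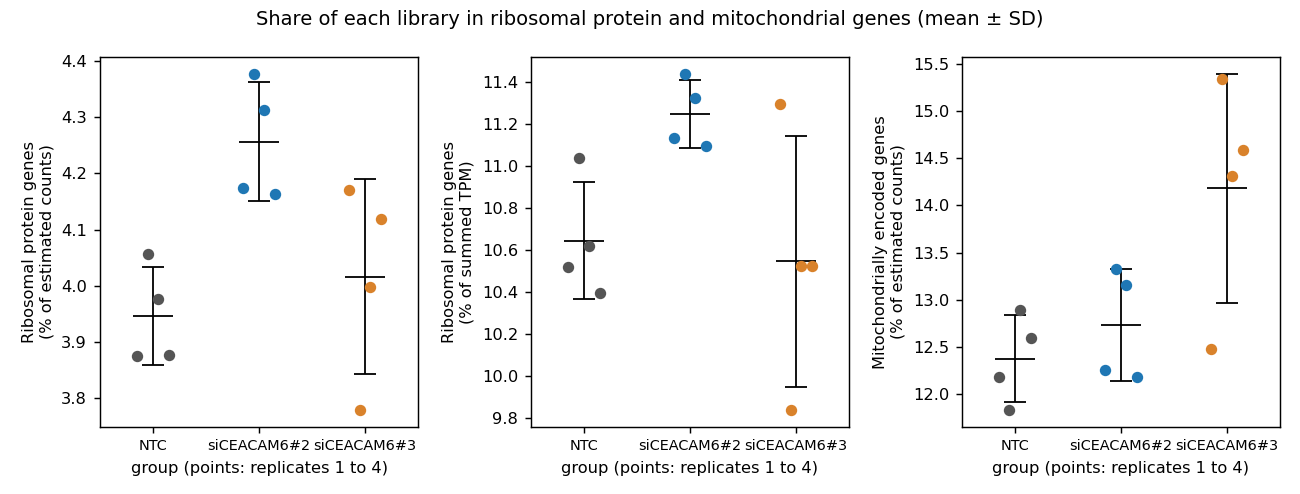
Share of ribosomal protein genes in the estimated counts (left) and in the summed TPM (middle) and share of mitochondrially encoded genes in the counts (right), in percent, with a point per replicate and the mean ± SD of 4. The siCEACAM6#2 samples lie above all NTC samples in the left and middle panels, while siCEACAM6#3 overlaps NTC in both and its mitochondrial share reaches 15.3%.

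RPS12 was measured at 209, 206, 202 and 199 CPM in NTC and at 227, 245, 261 and 255 CPM with siCEACAM6#2. The groups did not overlap, and RPS12 was 1.21-fold higher (log2 fold change 0.27, SE 0.05, limma-voom with Benjamini-Hochberg adjustment, adjusted p = 0.013). It lies at chr6:132814569-132817564 on GRCh38. RPS18 was measured at 347, 369, 364 and 352 CPM in NTC and at 394, 431, 415 and 397 CPM with siCEACAM6#2. These groups did not overlap either, and RPS18 was 1.14-fold higher (log2 fold change 0.19, SE 0.04, limma-voom adjusted p = 0.0471). It lies at chr6:33272075-33276511, in the major histocompatibility complex region. RPS13 had the next smallest p and was not called (log2 fold change 0.20, SE 0.05, limma-voom adjusted p = 0.0682).

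The 2 called genes are 2.6% of 77, beside 1.25% of all genes tested that were called in either direction and 0.613% of all genes tested that were called higher in this comparison, and none was called lower, beside 0.641% of all genes. The median log2 fold change of the 77 genes was 0.12, a change of 8.84%, and 75 of 77 were above 0, while the median of all genes tested was 0.00 with 50.1% above 0. At an unadjusted p under 0.05, 42 of 77 were higher and 0 lower, beside 6.5% of all genes higher and 7.12% lower. In 33 of 77 every siCEACAM6#2 sample lay above every NTC sample and in 0 every sample lay below, beside 5.34% and 5.42% of all genes.

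The number of calls depended on single libraries and on the tool, while the direction did not. Without NTC replicate 3, NTC replicate 4 or siCEACAM6#2 replicate 3, none of the 77 was called. With NTC replicate 1, NTC replicate 2, siCEACAM6#2 replicate 2, siCEACAM6#2 replicate 4 or siCEACAM6#3 replicate 3 left out, RPS12 alone was called, and RPS18 was not. Without siCEACAM6#2 replicate 1 or siCEACAM6#3 replicate 4, 5 were called, and without siCEACAM6#3 replicate 2, 3 were called. Over all genes these fits called 322, 364 and 322, against 221 in the main fit. RPS12 was also the only call of the edgeR quasi-likelihood test, whereas DESeq2 called 16 and limma-voom with sample weights called 26, all higher. Of all 17620 genes, edgeR called 254, DESeq2 534 and the fit with sample weights 1120. Across these settings 74 to 76 of the 77 log2 fold changes stayed above 0.

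Both subunits had like values with siCEACAM6#2. The median log2 fold change was 0.13 for the 31 small subunit genes, of which 29 were above 0, and 0.12 for the 46 large subunit genes, all above 0. The large subunit genes ran from 0.04 (RPL29) to 0.21 (RPL38) on the log2 scale, and none of them was called. Among the small subunit genes, RPS26, which lines the mRNA exit channel, was at 148, 143, 143 and 122 CPM in NTC and at 145, 128, 121 and 128 CPM with siCEACAM6#2 (log2 fold change -0.09, limma-voom adjusted p = 0.838). RPS15, a protein of the small subunit head, was at 225 to 246 CPM in NTC and at 219 to 241 CPM with siCEACAM6#2 (log2 fold change -0.01, adjusted p = 0.969). These overlapping values were the only ones of the 77 below 0.

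**Figure D3:**
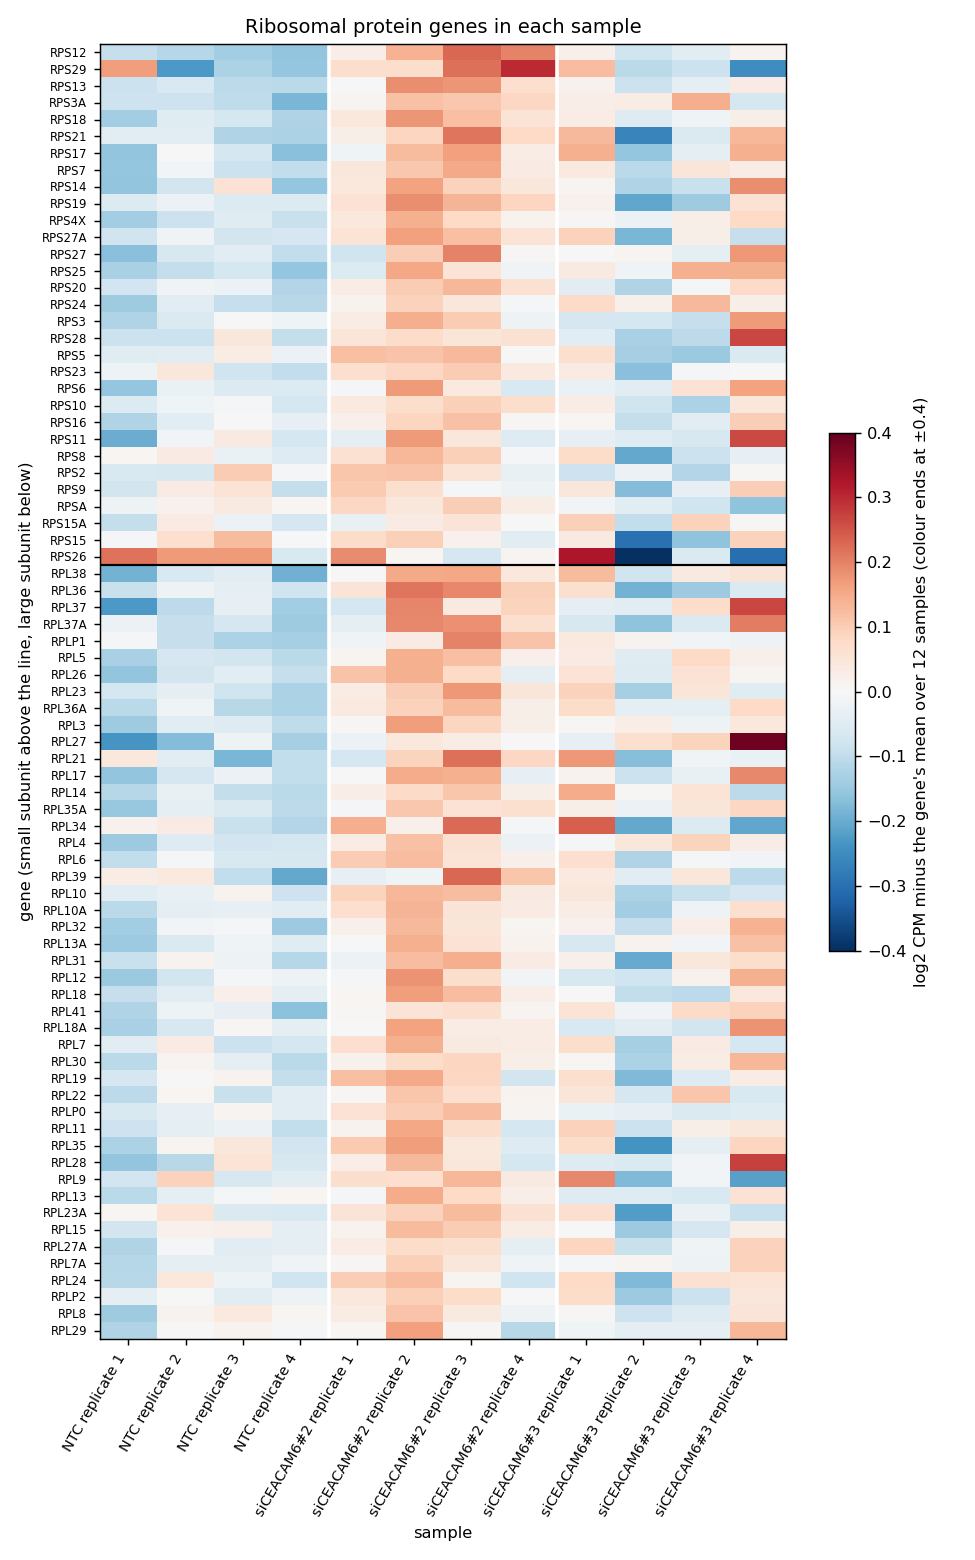
Heatmap of the 77 genes (rows, small subunit above the black line and large subunit below, each ordered by the log2 fold change with siCEACAM6#2) in the 12 samples (columns), coloured by log2 CPM minus the gene's mean over all samples. Red fills most of siCEACAM6#2 replicates 2 and 3, blue most of NTC replicates 1 and 4, and the siCEACAM6#3 columns differ from each other.

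The median level of these genes also differed between the samples of a group. The median of the centred log2 CPM over the 77 genes was -0.10, -0.03, -0.04 and -0.09 in NTC, 0.03, 0.12, 0.09 and 0.02 with siCEACAM6#2 and 0.03, -0.09, -0.02 and 0.05 with siCEACAM6#3, in replicate order. The lowest siCEACAM6#3 sample lay among the NTC samples and the highest within the siCEACAM6#2 range. Within siCEACAM6#2, replicate 2 was the highest sample for 48 genes, and replicates 1 and 4 were the lowest for 36 and 39. Within siCEACAM6#3, replicate 2 was the lowest for 54 genes and the highest for 0, and this sample had the highest mitochondrial share of all libraries (15.3%). Replicate 4 of siCEACAM6#3 had the next highest share (14.6%) and was the highest of its group for 42 genes. The same counts of highest and lowest samples were not made over all genes tested, so these have no background beside them. In siCEACAM6#2, replicates 2 and 3 had both the highest mitochondrial shares of that group (13.3% and 13.2%) and its highest medians. Whether the mitochondrial share plays a part in these values was not tested.

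The replicate spread of single genes was small. The median residual SD, the spread of log2 CPM around the group means, was 0.072 for the ribosomal protein genes and 0.142 for the 17461 tested genes with a count in every sample. These sets were not matched for expression level. Among the ribosomal protein genes, RPLP0, often used as a reference gene, had the smallest residual SD at 0.035. RPS26 had the largest at 0.245, followed by RPS29, a zinc-binding protein of the small subunit, at 0.149 and RPL34 at 0.143. The siCEACAM6#3 samples of RPS26 were at 159, 83.7, 122 and 103 CPM, which include both the lowest and the highest of the 12 samples.

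Knockdown with siCEACAM6#3, the second siRNA, was compared with the same NTC samples. None of the 77 genes passed the limma-voom test, beside 0.0681% of all genes called, 0.0511% higher and 0.017% lower. Before adjustment, 16 of 77 were higher and 0 lower at p under 0.05, beside 5.98% and 6.5% of all genes. The edgeR quasi-likelihood test called 0, DESeq2 called 3 (RPL27, RPS24 and RPS25) and limma-voom with sample weights called 4 (the same 3 genes and RPS3A). Over all genes they called 13, 221 and 382, against 12 in the main fit. Without siCEACAM6#3 replicate 1, 2 were called, RPL27 as higher and RPS26 as lower, beside 258 of 17907 genes tested in that fit.

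The share of counts in ribosomal protein genes was 4.17%, 3.78%, 3.997% and 4.12% with siCEACAM6#3, which overlaps the NTC samples, with a mean of 4.02% ± 0.174 (SD, n = 4). Without mitochondrially encoded genes it was 4.76%, 4.46%, 4.66% and 4.82%, so that replicates 1, 3 and 4 lay above all NTC samples and replicate 2 among them. The median log2 fold change was 0.06 with 61 of 77 above 0 on the count scale, but -0.02 with 32 above 0 on log2(TPM + 1). Over all genes tested the median was -0.00 with 48.9% above 0 on counts and -0.04 with 36.9% above 0 on log2(TPM + 1), so the median of the ribosomal protein genes lay above that of all genes on both scales while its sign turned. On counts it was 0.03 (50 of 77 above 0) without siCEACAM6#3 replicate 4 and 0.09 (68 above 0) without siCEACAM6#3 replicate 2. In 11 of 77 genes every siCEACAM6#3 sample lay above every NTC sample and in 0 every sample lay below, beside 2.99% and 3.29% of all genes. These 11 were RPL3, RPL4, RPL5, RPL35A, RPL41, RPS3A, RPS4X, RPS12, RPS24, RPS25 and RPS27.

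RPL27, a large subunit protein, had the smallest p of this comparison. It was at 325, 340, 377 and 349 CPM in NTC and at 374, 401, 408 and 502 CPM with siCEACAM6#3 (log2 fold change 0.27, SE 0.07, limma-voom adjusted p = 0.162). The groups overlapped, and siCEACAM6#3 replicate 4 lay far above the other 3 samples. Without it the log2 fold change was 0.18. RPS24 was at 304, 325, 315 and 310 CPM in NTC and at 354, 340, 367 and 341 CPM with siCEACAM6#3 (log2 fold change 0.16, adjusted p = 0.166). RPS25 was at 259, 265, 270 and 255 CPM in NTC and at 290, 281, 312 and 313 CPM with siCEACAM6#3 (log2 fold change 0.19, adjusted p = 0.179). RPS24 and RPS25, both small subunit proteins, showed no overlap between the groups. The members with the smallest p among the values below 0 were RPS26 (log2 fold change -0.28, adjusted p = 0.405), RPSA (log2 fold change -0.08, adjusted p = 0.433) and RPS15 (log2 fold change -0.13, adjusted p = 0.473). Without siCEACAM6#3 replicate 2 the value of RPS26 was -0.14 and that of RPS15 -0.06, and without siCEACAM6#3 replicate 1 that of RPS26 was -0.44 (limma-voom adjusted p = 0.0426).

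**Figure D4:**
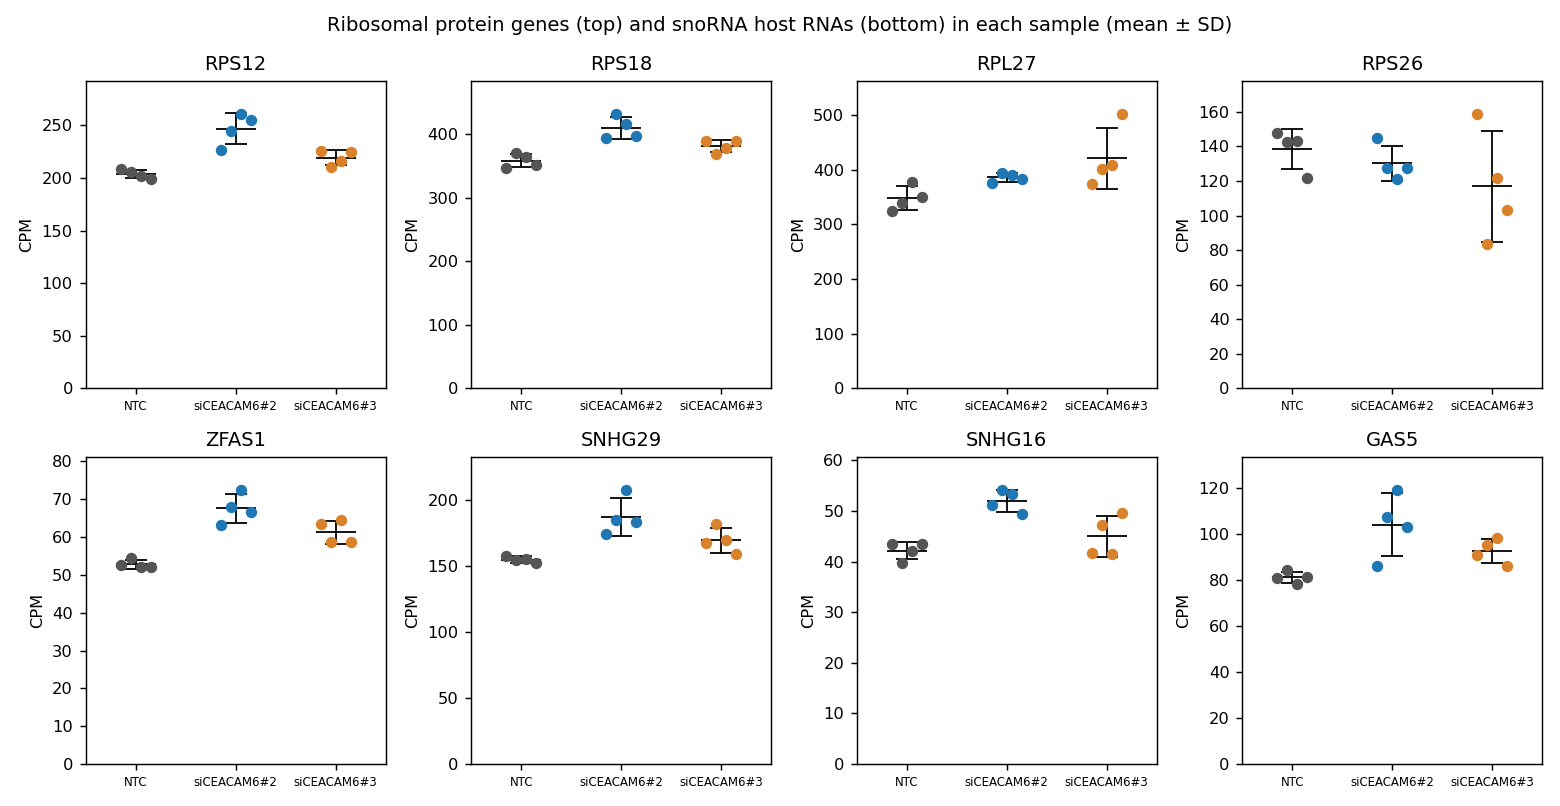
CPM in each sample (points, with the mean ± SD of 4 replicates) of the ribosomal protein genes RPS12, RPS18, RPL27 and RPS26 (top) and of the snoRNA host RNAs ZFAS1, SNHG29, SNHG16 and GAS5 (bottom), with axes from 0. RPS12, RPS18 and the 4 host RNAs were higher in each siCEACAM6#2 sample than in each NTC sample, while RPL27 and RPS26 spread widely with siCEACAM6#3.

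The difference between the siRNAs was tested directly. None of the 77 genes was called by limma-voom, beside 1.47% of all genes called, 0.84% higher and 0.63% lower with siCEACAM6#3 than with siCEACAM6#2. The median log2 difference was -0.08 (-0.04 with 17 above 0 without siCEACAM6#3 replicate 2), and 8 of 77 were above 0, while the median of all genes was -0.00 with 48.8% above 0. At an unadjusted p under 0.05, 0 of 77 were higher and 18 lower with siCEACAM6#3, beside 6.81% and 6.5% of all genes. RPLP0, RPS12, RPS18, RPS23 and RPSA were lower in every siCEACAM6#3 sample than in every siCEACAM6#2 sample (5 of 77, beside 3.34% of all genes). The edgeR quasi-likelihood test called 0 of the 77 and DESeq2 called 5 as lower, beside 276 and 556 of all genes in either direction. Without siCEACAM6#3 replicate 1, 4 were called lower, and without siCEACAM6#3 replicate 4, 1 was. Over all genes these fits called 651 of 17907 and 315 of 17888 in either direction, against 259 of 17620 in the main fit. RPL36, a large subunit protein, had the smallest p, at 181, 203, 200 and 187 CPM with siCEACAM6#2 and 183, 154, 158 and 168 CPM with siCEACAM6#3 (log2 difference -0.22, SE 0.06, limma-voom adjusted p = 0.0725). RPL10, at the subunit interface, followed RPS12 with a log2 difference of -0.16 (adjusted p = 0.119). RPS12 was at 226, 211, 216 and 225 CPM with siCEACAM6#3, a log2 difference of -0.17 from siCEACAM6#2 (adjusted p = 0.11), and lay above all NTC samples. The members with the smallest p among the values above 0 were RPL27, RPS25 and RPS24. Their log2 differences were 0.12, 0.04 and 0.03 (limma-voom adjusted p = 0.53, 0.813 and 0.856). By mean CPM, 52 of 77 genes had the order NTC, siCEACAM6#3, siCEACAM6#2 from low to high. This order was not counted over all genes tested.

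Members with known special roles were taken next, and none of them passed the test in any comparison. The P stalk, through which the large subunit recruits translation GTPases, is built from RPLP0, RPLP1 and RPLP2. RPLP1 was at 739, 696, 679 and 676 CPM in NTC, 735, 759, 852 and 803 CPM with siCEACAM6#2 and 761, 749, 736 and 731 CPM with siCEACAM6#3. The groups overlapped, and the log2 fold change was 0.17 for siCEACAM6#2 (limma-voom adjusted p = 0.111) and 0.09 for siCEACAM6#3 (adjusted p = 0.45). For siCEACAM6#2 the log2 fold change was 0.11 for RPLP0 and 0.08 for RPLP2. For siCEACAM6#3 it was -0.01 and -0.00, and both signs turned under other settings.

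RPL5 and RPL11 form the 5S ribonucleoprotein with 5S rRNA and bind MDM2 when ribosome assembly is disturbed. RPL5 was at 1695, 1767, 1759 and 1721 CPM in NTC, 1868, 2045, 2012 and 1878 CPM with siCEACAM6#2 and 1893, 1793, 1956 and 1879 CPM with siCEACAM6#3. Its NTC samples lay below all others, with log2 fold changes of 0.17 (95% interval 0.07 to 0.26, limma-voom adjusted p = 0.082) and 0.12 (0.02 to 0.21, adjusted p = 0.311). RPL11 overlapped between the groups, with log2 fold changes of 0.10 (-0.01 to 0.21) and 0.08 (-0.03 to 0.19).

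RPS6, the substrate of S6 kinase, was at 625, 684, 670 and 670 CPM in NTC, 692, 783, 715 and 667 CPM with siCEACAM6#2 and 684, 676, 725 and 777 CPM with siCEACAM6#3. The 3 groups overlapped, with a log2 fold change of 0.11 with either siRNA (95% interval -0.01 to 0.23 for both). RPSA, also known as the laminin receptor precursor, was at 777 to 808 CPM in NTC, 805 to 843 CPM with siCEACAM6#2 and 704 to 782 CPM with siCEACAM6#3. Its log2 difference between the siRNAs was -0.14 (limma-voom adjusted p = 0.134), without overlap. RPS27A, made as a fusion with ubiquitin, had log2 fold changes of 0.16 (adjusted p = 0.209) and 0.02 (adjusted p = 0.92). RPS3, which is also known for a role in DNA repair, was at 676, 675, 665 and 798 CPM with siCEACAM6#3, so that replicate 4 stood apart, and its log2 fold changes were 0.11 (adjusted p = 0.43) and 0.03 (adjusted p = 0.852).

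RPS19, a gene mutated in Diamond-Blackfan anemia, is the ribosomal protein gene nearest to the siRNA target in its coordinates, starting 88 kb beyond the end of CEACAM6 on chromosome 19. It was at 398, 407, 399 and 398 CPM in NTC, 430, 470, 454 and 439 CPM with siCEACAM6#2 and 418, 358, 374 and 430 CPM with siCEACAM6#3. The siCEACAM6#2 samples lay above all NTC samples (log2 fold change 0.16, limma-voom adjusted p = 0.188), and the siCEACAM6#3 samples lay on both sides of them (log2 fold change -0.02, adjusted p = 0.903). The 77 genes are spread over 21 chromosomes, with 12 of them on chromosome 19.

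Of the ribosomal proteins named otherwise, FAU, which encodes eS30 as a ubiquitin-like fusion, had a log2 fold change of 0.07 for siCEACAM6#2 and -0.05 for siCEACAM6#3. RACK1, a scaffold on the small subunit, was at 0.01 and -0.02 on the same scale. Neither passed the limma-voom test in any comparison.

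Near-copy paralogs, which can replace a ribosomal protein in some tissues, were a small part of each pair and none of the 8 was called in any comparison. RPL36AL was at 11.1% to 14.2% of the TPM of RPL36A over the 12 samples and RPL26L1 at 6.19% to 9.46% of that of RPL26. RPL7L1 was at 4.39% to 6.01% of RPL7, RPL22L1 at 3.79% to 5.13% of RPL22, RPL39L at 3.32% to 4.27% of RPL39 and RPS27L at 1.39% to 1.94% of RPS27. RPL3L and RPL10L, which are known mainly from muscle and testis, stayed under 0.1% of RPL3 and RPL10.

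Genes whose mRNAs are controlled together with those of the ribosome were examined as lists. Among the elongation factors and other TOP factors of translation, the median log2 fold change was 0.11 for siCEACAM6#2 (15 of 16 above 0) and 0.06 for siCEACAM6#3 (13 of 16), and none was called in any comparison. The values of this list ran from -0.02 to 0.18 with siCEACAM6#2 and from -0.08 to 0.19 with siCEACAM6#3. EEF1A1, the elongation factor that brings tRNA to the ribosome, had log2 fold changes of 0.18 (limma-voom adjusted p = 0.172) and 0.19 (adjusted p = 0.222). TPT1, another TOP mRNA, had 0.16 (adjusted p = 0.095) and 0.15 (adjusted p = 0.197). EEF1A1 and TPT1 both lay above the upper quartile of the list with each siRNA (0.13 and 0.10).

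The noncoding snoRNA host RNAs, which carry small nucleolar RNAs in their introns and of which several are known TOP RNAs, gave the most calls. At the RefSeq starts of the 4 called ones, no pyrimidine run as defined above was found. ZFAS1 has ttctttc and SNHG16 has ttcttttc near the start, pyrimidine stretches that begin with T and so do not meet that definition. Of 12 measured, 4 rose with siCEACAM6#2 and none fell, beside 0.613% and 0.641% of all genes. The median log2 fold change was 0.23, and all 12 were above 0, beside 50.1% of all genes. ZFAS1 was at 52.6, 54.6, 52.0 and 52.2 CPM in NTC, 63.3, 68.0, 72.5 and 66.7 CPM with siCEACAM6#2 and 63.4, 58.7, 64.4 and 58.8 CPM with siCEACAM6#3. Both knockdown groups lay above NTC, with log2 fold changes of 0.36 (SE 0.06, limma-voom adjusted p = 0.005) and 0.21 (adjusted p = 0.148). GAS5 was at 81.0, 84.0, 78.3 and 81.0 CPM in NTC, 86.2, 107, 119 and 103 CPM with siCEACAM6#2 and 90.8, 95.1, 98.0 and 86.1 CPM with siCEACAM6#3. Its log2 fold changes were 0.35 (adjusted p = 0.0379) and 0.19 (adjusted p = 0.339), again without overlap with NTC.

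SNHG29, at 152 to 158 CPM in NTC and 174 to 208 CPM with siCEACAM6#2, and SNHG16, at 39.8 to 43.5 and 49.4 to 54.2 CPM, were the other host RNAs that rose (log2 fold changes 0.27 and 0.30, limma-voom adjusted p = 0.0273 and 0.031). With siCEACAM6#3 the median of the 12 host RNAs was 0.10 with 9 above 0 and none was called. Against siCEACAM6#2 all 12 were below 0 with siCEACAM6#3, with a median of -0.15, and none was called. ZFAS1 was called with each of the 12 libraries left out in turn but not on either TPM scale. GAS5, SNHG16 and SNHG29 each lost the call without any one of the NTC replicates or of siCEACAM6#2 replicates 2, 3 and 4, and on both TPM scales, GAS5 and SNHG16 also without the filter on low counts.

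**Figure D5:**
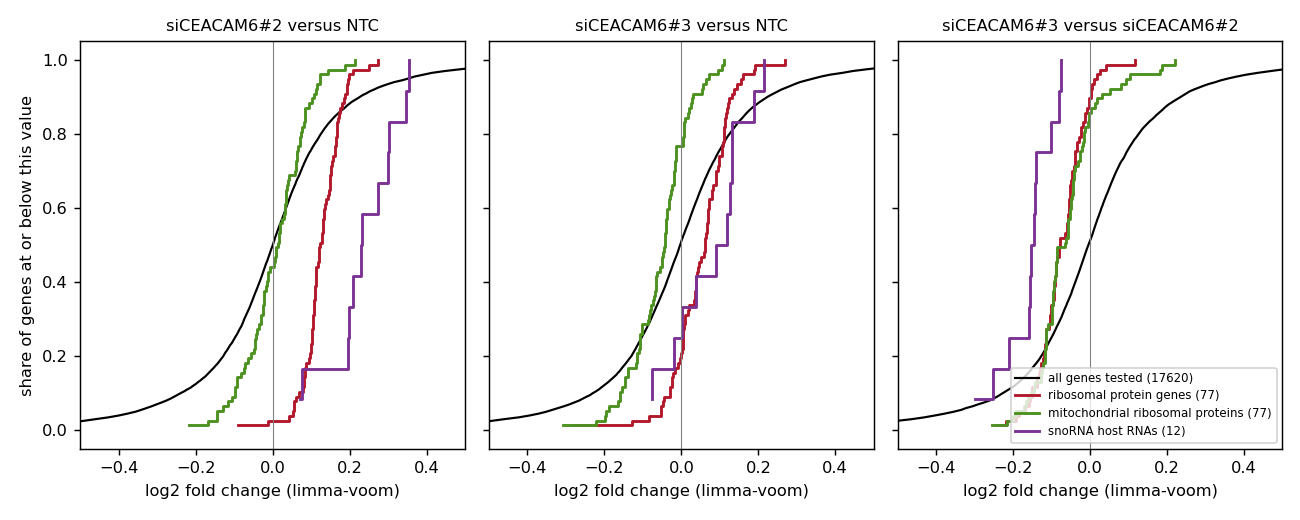
Share of genes at or below each log2 fold change (limma-voom on counts) for all 17620 genes tested, the 77 ribosomal protein genes, 77 mitochondrial ribosomal protein genes and 12 snoRNA host RNAs in the 3 comparisons. With siCEACAM6#2 the curve of the ribosomal protein genes lies to the right of that of all genes over most of its length (medians 0.12 and 0.00), and with siCEACAM6#3 its median is 0.06 on counts (all genes -0.00) but -0.02 on log2(TPM + 1) (all genes -0.04).

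Genes that build the ribosome were set beside the 1.25%, 0.0681% and 1.47% of all genes called in the 3 comparisons. None of 38 ribosome biogenesis factors was called, with medians of 0.02 with siCEACAM6#2 and -0.07 with siCEACAM6#3 on the log2 scale (28 and 7 of 38 above 0). None of 14 genes of RNA polymerase I, which makes the rRNA precursor, was called either, with medians of 0.07 (10 of 14 above 0) and 0.02 (9 of 14). With siCEACAM6#2 the RNA polymerase I genes ran from -0.26 to 0.26 on the log2 scale. Among 11 assembly chaperones, AAMP was at 106, 99.9, 99.4 and 100.0 CPM with siCEACAM6#2 and at 92.8, 79.6, 85.1 and 89.1 CPM with siCEACAM6#3, without overlap. It was lower with siCEACAM6#3 (log2 difference -0.23, SE 0.05, limma-voom adjusted p = 0.038), a call that was kept only without siCEACAM6#3 replicate 1 or replicate 4 among the 12 fits with 1 library left out, and that was lost on both TPM scales and with only the 2 groups compared. The other 10 were not called in any comparison.

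None of 20 mTORC1 and TOP mRNA regulators was called in any comparison, with medians of -0.03 for each siRNA. The 10 transcription factors linked to ribosomal protein promoters had medians of 0.00 and 0.06 with none called. The 77 mitochondrial ribosomal protein genes, which serve the separate ribosome of the mitochondrion, had medians of 0.01 (43 of 77 above 0) and -0.04 (18 of 77), with none called. The 25 tested mitochondrially encoded genes had a median of 0.11 with siCEACAM6#2 (20 of 25 above 0) and of 0.26 with siCEACAM6#3 (24 of 25, 20 of them at an unadjusted p under 0.05). Of these, MT-TP, a tRNA, rose with siCEACAM6#3 (log2 fold change 0.49, limma-voom adjusted p = 0.0151), and MT-TP and MT-RNR2, the large mitochondrial rRNA, were higher with siCEACAM6#3 than with siCEACAM6#2 (log2 difference 0.33 and 0.28, adjusted p = 0.0262 and 0.0247). Against NTC, MT-TP lost its call without NTC replicate 1, NTC replicate 4 or siCEACAM6#3 replicate 3, and between the siRNAs both genes lost it without siCEACAM6#2 replicates 1, 3 or 4 or siCEACAM6#3 replicate 3, MT-TP also without siCEACAM6#3 replicate 2 and MT-RNR2 without siCEACAM6#3 replicate 4. These calls were also lost on both TPM scales, those between the siRNAs also with only the 2 groups compared. Of the 30 tested pseudogenes none was called.

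The fold changes were also set beside the pyrimidine run at the annotated start. With siCEACAM6#2 the median log2 fold change was 0.13 for the 48 genes with the run at a start, with 48 above 0, and 0.13 for the 14 without it, with 12 above 0. With siCEACAM6#3 the medians were 0.06 and 0.05. Among other genes tested, the 1289 with the run had a median of 0.00 with siCEACAM6#2 (50.3% above 0) and 0.01 with siCEACAM6#3 (51.6%), close to the 10757 without it. The difference between genes with and without the run was not tested.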

How the data were processed

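Bulk mRNA-seq libraries of SNU308 cells in 3 groups of 4 were analysed. The authors deposited, for each sample, an estimated count and a TPM value per gene, made with Trim Galore 0.6.4 and kallisto 0.4.6 per the labels on a GRCh38.p13 transcriptome. Reads shared by near-identical copies were thereby split between them by the authors' quantification. Estimated counts were rounded to whole numbers, genes were filtered with filterByExpr, and TMM factors were used. The 3 groups were fitted together with voom and limma 3.58.1 in R 4.3.3, and p-values were adjusted by Benjamini-Hochberg over all 17620 genes, which hold 99.858% of the counts. A gene was called at an adjusted p under 0.05. Genes without a symbol held 0.0631% of the counts. CEACAM6 was also tested by exact permutation. Alternatives used edgeR 4.0.16, DESeq2 1.42.0, log2(TPM + 1), other scaling and filters, a replicate block, and each library left out. Libraries held 21799476 to 22059456 counts, and differences of a few percent in single genes lie near the replicate spread. Gene coordinates are from GENCODE and transcript starts from RefSeq. The members, the lists and the rule for named genes were chosen with earlier results of these data known. Named were genes with a special role, the called genes of each comparison or, with fewer than 3 calls, the 3 with the smallest p in each direction, the highest and lowest by TPM, paralogs, and called list members.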

Additional observations from a re-analysis of the deposited data

Results flagged for a closer look

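In 3 of 102 groups of 4 samples examined, 1 sample stood apart from the other 3 by Dixon's criterion, which chance alone meets in about 5% of groups. RPS3 was at 798 CPM in siCEACAM6#3 replicate 4, while the other samples of that group lay at 665 to 676 CPM. RPS19 was at 407 CPM in NTC replicate 2, against 398 to 399 CPM in the others. AAMP was at 106 CPM in siCEACAM6#2 replicate 1, against 99.4 to 100.0 CPM in the others.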

How the results depend on the processing

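With siCEACAM6#2, 2 ribosomal protein genes were called. The number was 1 with library size scaling only, 9 without the filter on low counts, 1 with edgeR, 16 with DESeq2, 0 with limma on log2(TPM + 1) or log2(TPM + 0.1), 26 with sample weights and 13 with only the 2 groups compared. It ran from 0 to 5 with 1 library left out. The median log2 fold change stayed between 0.09 and 0.14. With siCEACAM6#3, 0 were called, but 3 with DESeq2, 4 with sample weights and 0 to 2 with 1 library left out. The median turned to -0.02 on log2(TPM + 1) (-0.0210) and log2(TPM + 0.1) (-0.0210), where the median of all genes was -0.04 and -0.05, and it was 0.03 with library size scaling only, where that of all genes was -0.03. With 1 library left out it ran from 0.03 to 0.09, and between the siRNAs from -0.09 to -0.04. The ratio of the share to NTC turned to 0.991 on TPM. Between the siRNAs, 0 were called, but 3 without the filter, 5 with DESeq2, 3 with sample weights and 0 to 4 with 1 library left out. The cause of these changes was not tested.

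Same-numbered samples had correlations of their deviations between -0.06 and 0.224, and differently numbered samples between -0.251 and 0.179. The main fit did not take the numbers as pairs, and whether they are pairs was not tested. With the replicate block, 1, 0 and 0 ribosomal protein genes and 284, 87 and 349 of all genes were called in the 3 comparisons, against 221, 12 and 259 without it. Over all genes DESeq2 called 534, 221 and 556, sample weights 1120, 382 and 560, log2(TPM + 1) 5, 4 and 49, log2(TPM + 0.1) 6, 4 and 53, and the fit of only the 2 groups 600, 10 and 57. The edgeR test called 254, 13 and 276, and the fit without the filter 160, 24 and 211. With 1 library left out the numbers were 49 to 364, 2 to 258 and 83 to 651.

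Log2 values near 0 changed sign, with no call on either side. With 1 library left out, RPS15 with siCEACAM6#2 ran from -0.0299 to 0.0169. With siCEACAM6#3 and 1 library left out, RPLP0 ran from -0.0141 to 0.0104, RPS19 from -0.0657 to 0.0240, RPLP2 from -0.0296 to 0.0363, RPS27A from -0.0188 to 0.0669 and RPS3 from -0.0291 to 0.0641. RPLP2 was at 0.000144 with the stricter filter, 0.000207 with edgeR and 0.00219 with DESeq2. RPS27A was at -0.0119 with library size scaling, -0.0155 on log2(TPM + 1) and -0.0156 on log2(TPM + 0.1). RPS3 was at -0.00792 on both TPM scales and -0.0122 with sample weights. RPS24 between the siRNAs was at -0.00473 on both TPM scales.

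RPS12 lost its call in 3 of 12 fits with 1 library left out (adjusted p 0.00411 to 0.0739) and on both TPM scales. RPS18 lost it in 8 of 12 (0.029 to 0.173), with library size scaling, with edgeR, with the block and on both TPM scales. Library depth differed little between samples.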
